A study of Mus musculus with 7 samples.

Results

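Among the 1926 differentially methylated regions (DMRs) between Scnn1b-Tg and wild-type (WT) airway macrophages (AMs), 513 (26.6%) were annotated inside an intron and are described here. They were taken by the annotation class of each region, without regard to its methylation, and the annotation also names the host gene and the intron number. AMs (CD45+ Siglec-F+ CD11c+) were sorted from lungs of 6-week-old female C57BL/6 mice, and their DNA methylation was profiled by whole-genome bisulfite sequencing after tagmentation (tWGBS). The 3 Scnn1b-Tg samples came from mice that express a Scnn1b transgene, encoding a subunit of the epithelial sodium channel, from the club cell promoter in airway epithelium and not in AMs, and the 4 WT samples from littermates without it. Labels do not say that a sample is 1 mouse. The list gives 1 mean methylation level per genotype and region, a fraction from 0 to 1, with no level per sample and no read depth. Therefore no spread between samples can be given for any level, and the tests compare classes of called regions, with DMRs as the unit. Their p-values say nothing of variation between mice, and several DMRs of one host are not independent. The list does not name the genotype of each level column. It was assigned from what the study describes, and every direction depends on that assignment. With this assignment, 1404 of all 1926 DMRs were lower and 522 higher in Scnn1b-Tg AMs, and the reverse assignment would swap these counts. The paper reports reduced methylation in Scnn1b-Tg AMs for the majority of DMRs, and its count equals that of the lower DMRs here. The assignment used here therefore matches the paper, and the reverse one would not. The list holds no expression values, so the cell type could not be checked against marker transcripts.

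Introns are removed from the transcript by splicing, but their DNA holds much of the regulatory sequence of mammalian genes. Enhancers are often found in the first intron, close to the transcription start site (TSS), while later introns of expressed genes usually carry high CpG methylation. Long introns also harbour many copies of transposable elements, which are normally methylated. The annotation gave regions within 3 kb of a TSS to promoters first, so the closest intronic DMR lay 3.02 kb from the TSS of its nearest gene.

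The annotation was compared with GENCODE vM21 on the same genome build. By that annotation, 11 of the 513 DMRs touched an exon, 43 lay within 3 kb of a TSS and 36 lay in no intron of a basic transcript, and 438 met all 3 criteria for an intron away from a TSS. The host had a gene identifier for 475 DMRs, all of which matched a RefSeq gene, in 425 different hosts. For the other 38 DMRs the host was 1 of 30 transcripts without a gene identifier.

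Sequences of the shorter intronic DMRs with the most CpGs show what kind of DNA these regions hold. The following 4 DMRs were hypomethylated in Scnn1b-Tg AMs, and they are shown from the first CpG on the plus strand of GRCm38 with each CpG in capitals. The last base is the C of the final CpG, whose G lies 1 base beyond the annotated end.
Pdzrn4: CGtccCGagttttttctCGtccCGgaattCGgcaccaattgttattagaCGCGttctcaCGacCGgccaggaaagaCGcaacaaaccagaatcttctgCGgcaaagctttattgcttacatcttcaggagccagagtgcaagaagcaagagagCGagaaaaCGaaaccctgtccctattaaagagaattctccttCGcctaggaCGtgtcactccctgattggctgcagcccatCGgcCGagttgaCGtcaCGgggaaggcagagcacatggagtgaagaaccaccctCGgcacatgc
Mcf2: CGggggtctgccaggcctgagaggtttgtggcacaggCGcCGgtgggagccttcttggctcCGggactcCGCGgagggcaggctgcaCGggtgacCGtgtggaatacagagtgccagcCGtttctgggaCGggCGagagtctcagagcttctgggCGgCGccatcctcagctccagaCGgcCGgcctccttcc
Bank1: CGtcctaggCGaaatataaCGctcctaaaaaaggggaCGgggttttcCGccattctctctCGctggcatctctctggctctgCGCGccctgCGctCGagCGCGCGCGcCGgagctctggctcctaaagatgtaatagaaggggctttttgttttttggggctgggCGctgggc
Sntg2: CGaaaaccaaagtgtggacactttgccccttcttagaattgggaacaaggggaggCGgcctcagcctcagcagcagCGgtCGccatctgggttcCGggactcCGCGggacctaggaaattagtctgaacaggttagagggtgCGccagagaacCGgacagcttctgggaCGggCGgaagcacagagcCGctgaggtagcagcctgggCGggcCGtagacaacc
The Pdzrn4 region (chr15:92474682-92474979, intron 3 of 9) had levels of 0.688 in Scnn1b-Tg versus 0.874 in WT AMs over 19 CpGs. This count of the list is below the 20 CpGs in capitals in its sequence. The Mcf2 region (chrX:60095323-60095515, intron 16 of 24) had 0.708 and 0.898 in Scnn1b-Tg and WT AMs. Bank1, which encodes a B cell scaffold protein, carried its region in intron 7 of 16 (chr3:136118395-136118567), with levels of 0.759 in Scnn1b-Tg versus 0.925 in WT AMs. The Sntg2 region (chr12:30187277-30187499, intron 6 of 6) differed most of these, with 0.574 in Scnn1b-Tg versus 0.875 in WT AMs. All 4 regions lay entirely in repeat-masked sequence.

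The next 4 sequences are the CpG-rich DMRs that were hypermethylated in Scnn1b-Tg AMs.
Sulf1: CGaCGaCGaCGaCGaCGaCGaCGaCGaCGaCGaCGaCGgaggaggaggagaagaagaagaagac
Trak1: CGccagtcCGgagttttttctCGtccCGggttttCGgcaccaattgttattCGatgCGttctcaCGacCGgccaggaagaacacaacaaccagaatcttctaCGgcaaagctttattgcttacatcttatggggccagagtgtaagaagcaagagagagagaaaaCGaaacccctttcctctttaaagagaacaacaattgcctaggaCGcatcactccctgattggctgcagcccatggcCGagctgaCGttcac
Trio: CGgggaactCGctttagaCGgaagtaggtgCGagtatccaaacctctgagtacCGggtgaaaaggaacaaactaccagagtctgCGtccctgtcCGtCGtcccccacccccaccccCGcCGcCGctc
Ndst4: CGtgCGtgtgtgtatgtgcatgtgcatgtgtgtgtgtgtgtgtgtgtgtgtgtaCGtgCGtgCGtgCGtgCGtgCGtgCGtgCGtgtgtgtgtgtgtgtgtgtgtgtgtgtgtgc
Sulf1, which encodes an extracellular heparan sulphate sulfatase, carried a DMR of 64 bp, which opens with a run of CGA triplets and goes on with GGA and GAA triplets, in intron 2 of 21 (chr1:12774301-12774364), where the level was 0.935 in Scnn1b-Tg versus 0.577 in WT AMs. The Trak1 region (chr9:121413126-121413381, intron 3 of 11) had 0.886 in Scnn1b-Tg versus 0.586 in WT AMs. The list counts 12 CpGs in the Trak1 region, while its sequence has 14 in capitals. Aligned end to end with the hypomethylated Pdzrn4 region, it was identical in 226 of 305 columns (74.1%), so related copies of 1 repeat were found in both directions. Trio encodes an exchange factor for small GTPases, and its region in intron 1 of 56 (chr15:27922338-27922464) had low levels in both genotypes, 0.375 in Scnn1b-Tg versus 0.194 in WT AMs. The Ndst4 region (chr3:125418029-125418143, intron 1 of 6) was mostly a run of TG with a stretch in which CG alternated with TG, with 0.645 in Scnn1b-Tg versus 0.392 in WT AMs. The Sulf1, Trak1 and Ndst4 regions lay entirely in repeat-masked sequence, while 22.8% of the Trio region did.

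Sequences from immune genes are shown because these hosts encode receptors and signalling proteins of macrophages. Pias1 was hypomethylated, and Il18 and Met were hypermethylated in Scnn1b-Tg AMs.
Pias1: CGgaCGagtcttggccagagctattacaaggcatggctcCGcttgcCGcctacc
Il18: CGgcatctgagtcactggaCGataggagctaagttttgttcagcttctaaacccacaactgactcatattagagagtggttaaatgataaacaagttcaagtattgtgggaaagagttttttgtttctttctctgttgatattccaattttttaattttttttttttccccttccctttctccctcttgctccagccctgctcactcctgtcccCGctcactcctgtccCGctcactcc
Met: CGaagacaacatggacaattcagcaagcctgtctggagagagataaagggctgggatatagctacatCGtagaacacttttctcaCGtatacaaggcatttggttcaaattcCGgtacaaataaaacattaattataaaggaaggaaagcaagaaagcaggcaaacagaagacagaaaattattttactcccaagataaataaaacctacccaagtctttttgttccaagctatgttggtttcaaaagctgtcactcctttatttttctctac
Compared with the CpG-rich regions above, these regions held few CpGs, 5 in each. Pias1, a SUMO ligase, had 0.538 in Scnn1b-Tg versus 0.815 in WT AMs in intron 2 of 13 (chr9:62935994-62936047). The cytokine gene Il18 had 0.579 in Scnn1b-Tg versus 0.307 in WT AMs in intron 2 of 5 (chr9:50570380-50570618). Met, the receptor for hepatocyte growth factor, had 0.722 in Scnn1b-Tg versus 0.476 in WT AMs in intron 1 of 11 (chr6:17480710-17480982).

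Most intronic DMRs were hypomethylated in Scnn1b-Tg AMs. This direction was seen in 389 of 513 (75.8%, exact 95% interval 71.9 to 79.5), and 72.9% of all DMRs in the list had it. The median level of the hypomethylated regions was 0.558 in Scnn1b-Tg versus 0.818 in WT AMs, and that of the 124 hypermethylated regions was 0.713 in Scnn1b-Tg versus 0.474 in WT AMs. A WT level of 0.8 or more was found in 212 intronic DMRs (41.3%), against 43.2% of all DMRs, and every such DMR in the list was hypomethylated. At such a level a gain of the usual size has little room. Levels differed by 0.3 or more in 55 intronic DMRs (10.7%), while 11.6% of all DMRs did so. Only 6 intronic DMRs, and 37 of all 1926, differed by less than 0.1, the minimum difference that the study states for its DMRs. These 6 intronic DMRs were long, at 380 bp or more. Because regions were called by their difference, its size was in part set by the call.

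**Figure D1:**
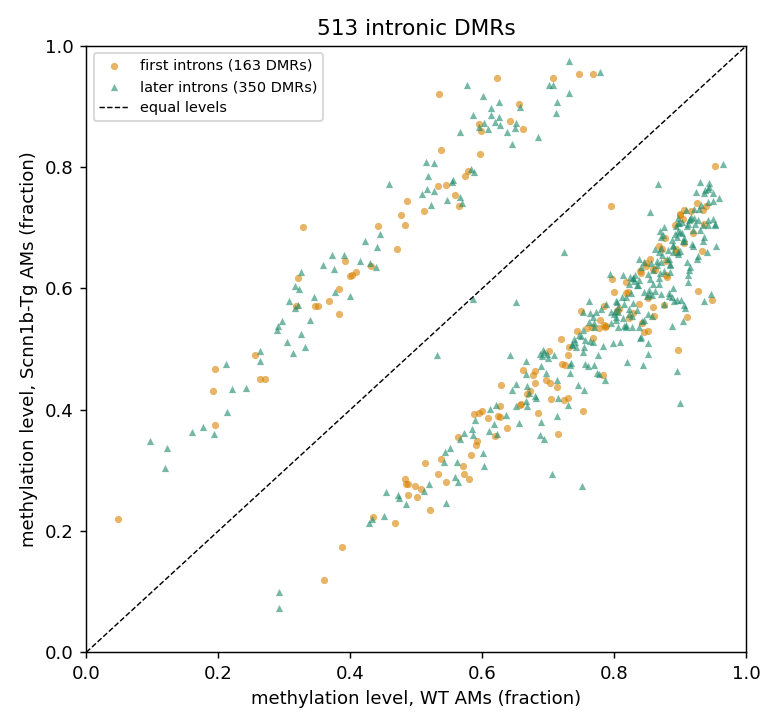
Methylation level in Scnn1b-Tg AMs (vertical axis, fraction) against that in WT AMs (horizontal axis, fraction) for each intronic DMR, with first introns as circles and later introns as triangles. The 389 DMRs below the dashed line of equal levels were lower in Scnn1b-Tg AMs, and the 124 above it were higher.

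To ask whether introns stand apart from other parts of the genome, intronic DMRs were compared with the other DMRs by Fisher's exact test (two-sided, adjusted by Benjamini-Hochberg over all 17 tests). Intronic and promoter DMRs differed in direction, with 75.8% of 513 and 50.2% of 211 (interval 43.3 to 57.2) lower in Scnn1b-Tg AMs (exact test, adjusted p = 7.91e-10). Among DMRs with 10 or more CpGs the shares were 72.4% of 58 intronic and 46.9% of 64 promoter DMRs, with an exact adjusted p = 0.0577. Among DMRs with a difference of 0.2 or more the gap was smaller, 77.2% of 426 against 61.5% of 109 (exact test, adjusted p = 0.0077). Promoter DMRs also started lower, with a median WT level of 0.498 against 0.752 in introns. A WT level of 0.8 or more, where every DMR was hypomethylated, was found in 16.1% of promoter and 41.3% of intronic DMRs. How much of the gap in direction goes with the starting level was not tested. No difference was detected between intronic and distal intergenic DMRs, 75.8% against 77.5% of 1112 (interval 74.9 to 79.9, exact test, adjusted p = 0.634). Against all other DMRs, 71.8% of 1413 (interval 69.4 to 74.2), the adjusted p was 0.350. Intronic and other DMRs fell on the same side of the median of all DMRs at similar rates for the absolute difference, CpG density and length (exact median tests, adjusted p of 0.889, 0.350 and 0.631). For the WT level, 47.0% of intronic and 51.1% of other DMRs lay above the median of 0.768 (exact test, adjusted p = 0.415). That exact test passed the threshold under 2 of 6 alternatives. The first kept DMRs with a difference of 0.2 or more (46.2% against 55.9%, exact test, adjusted p = 0.00741). The second kept DMRs 3 kb or farther from a TSS, with intronic ones only from genes with several introns (47.5% against 56.7%, exact test, adjusted p = 0.00982). It left all promoter DMRs, which had a median WT level of 0.498, out of the reference.

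The second question was whether position within the gene mattered. First introns held 163 DMRs and later introns 350. In first introns 119 DMRs (73.0%, interval 65.5 to 79.7) had the lower level in Scnn1b-Tg AMs and in later introns 270 (77.1%, interval 72.4 to 81.4). This difference did not pass the test (Fisher's exact test, adjusted p = 0.631). Second introns had the lowest share, 61 of 92 (66.3%, interval 55.7 to 75.8), and from intron 3 on the share ranged from 80.7% to 81.8%. This grouping of intron numbers was made for description and was not tested.

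**Figure D2:**
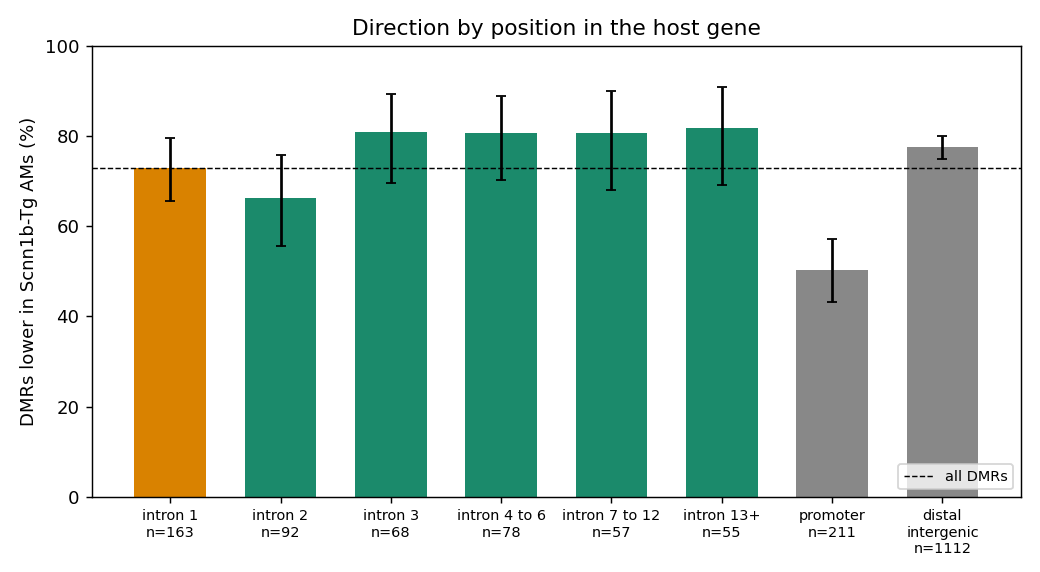
Share of DMRs lower in Scnn1b-Tg AMs (vertical axis, %) by intron number of the host, with promoter and distal intergenic DMRs beside it. Bars give the share, error bars its exact 95% interval and the dashed line the 72.9% of all DMRs, and promoter DMRs at 50.2% lie below every intron group.

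First introns started from a lower methylation level. The WT level lay above the median of all DMRs in 60 of 163 DMRs (36.8%) in first introns against 181 of 350 (51.7%) in later introns (exact median test, adjusted p = 0.0147). Median levels in first introns were 0.560 in Scnn1b-Tg versus 0.680 in WT AMs, and in later introns 0.588 in Scnn1b-Tg versus 0.775 in WT AMs. Among hypomethylated DMRs, 40.3% of those in first introns and 60.7% of those in later introns had a WT level of 0.8 or more. The call depended on the set of regions. The exact test no longer passed when each gene gave 1 DMR (40.0% against 47.6%, adjusted p = 0.617), when introns were taken from GENCODE (42.2% against 50.7%, adjusted p = 0.422) and among DMRs with 10 or more CpGs (27.8% of 18 against 45.0% of 40, adjusted p = 0.625). Absolute difference, CpG density and length did not separate first from later introns (adjusted p of 0.799, 0.924 and 0.636).

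A small group of hypomethylated DMRs lay in DNA that was already less than 0.5 methylated in WT AMs. There were 18 of them, 9 in first introns and 9 in later introns, which are 7.56% and 3.33% of the hypomethylated DMRs there. Cd53, which encodes a tetraspanin of leukocytes, had one of the lowest levels, 0.120 in Scnn1b-Tg versus 0.36 in WT AMs, in intron 1 of 7 (chr3:106784838-106785057). Nr3c1, the glucocorticoid receptor, had 0.213 in Scnn1b-Tg versus 0.467 in WT AMs in its first intron. The first-intron DMR of Il1r1, the receptor for interleukin-1, stood at 0.285 in Scnn1b-Tg versus 0.484 in WT AMs. The lowest levels in Scnn1b-Tg AMs were those of a pair of DMRs chosen after their values were seen. Nr6a1, an orphan nuclear receptor gene, had 0.0733 in Scnn1b-Tg versus 0.291 in WT AMs, and Sppl3, which encodes an intramembrane protease, had 0.0995 in Scnn1b-Tg versus 0.292 in WT AMs.

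Measured on the longest transcript of the host, intronic DMRs lay deep inside long genes. For 434 DMRs a GENCODE transcript of the host gene had the DMR in an intron, and the longest such transcript was used. Its intron number equalled the annotated one for 362 of them, and a shorter transcript can start closer to the DMR. The median intron length was 34.6 kb. The median distance to the nearest exon of that transcript was 7.20 kb, and 5 DMRs lay within 100 bp of an exon. The TSS of that transcript was a median of 61.8 kb away, and the median DMR lay 45.2% of the way along it. First introns were longer, with a median of 47.2 kb against 23.3 kb for later introns, and their DMRs were closer to the host TSS (median 28.3 kb against 86.4 kb).

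The largest losses, among DMRs with 6 or more CpGs, were found in hosts of very different function. Ano4, a member of the anoctamin family of membrane proteins, had 0.412 in Scnn1b-Tg versus 0.90 in WT AMs in intron 23 of 26 (chr10:88964363-88964441), the largest difference of any intronic DMR (-0.49). Atp13a4, which encodes a P-type ATPase, had 0.499 in Scnn1b-Tg versus 0.897 in WT AMs in intron 1 of 29. The zinc finger gene Zfp981 had 0.582 in Scnn1b-Tg versus 0.948 in WT AMs. Its relative Zfp808 had 0.552 in Scnn1b-Tg versus 0.911 in WT AMs, both in first introns. All 8 DMRs that the naming rule took for their loss started at 0.777 or more in WT AMs, and 5 of them lay entirely in repeats. The remaining hosts were Hivep3, a transcription factor that binds kB motifs, 1700046C09Rik, the potassium channel gene Kcnn2 and the axonemal dynein gene Dnah7b. Dnah7b had 12 CpGs and no repeat-masked base, and its levels were 0.458 in Scnn1b-Tg versus 0.777 in WT AMs.

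Among hypomethylated DMRs with many CpGs, Lrp1b, a member of the LDL receptor family, had 0.611 in Scnn1b-Tg versus 0.913 in WT AMs over 22 CpGs in intron 32 of 90. Plekhm2 encodes an adaptor between lysosomes and kinesin, and over 18 CpGs in its first intron the level was 0.348 in Scnn1b-Tg versus 0.592 in WT AMs. Lncpint, a long noncoding RNA gene, had 0.367 in Scnn1b-Tg versus 0.585 in WT AMs over 16 CpGs. Little of the last 2 regions was repeat-masked, 16.3% in Plekhm2 and 6.23% in Lncpint, against all of Lrp1b. Hydin, a gene for a protein of motile cilia, had 0.559 in Scnn1b-Tg versus 0.764 in WT AMs over 16 CpGs.

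Among DMRs with 6 or more CpGs, the largest gains were led by Fbxw4, which encodes an F-box protein, with 0.702 in Scnn1b-Tg versus 0.329 in WT AMs in intron 1 of 8 (chr19:45650353-45650763). It was followed by Sulf1, shown above, and by Arfgef2, an exchange factor for ARF GTPases, with 0.948 in Scnn1b-Tg versus 0.623 in WT AMs. Sirpb1c, a gene of the signal-regulatory protein family, had 0.617 in Scnn1b-Tg versus 0.321 in WT AMs. Lipc, the hepatic lipase gene, had 0.808 in Scnn1b-Tg versus 0.514 in WT AMs. Rhod, a small GTPase, had 0.858 in Scnn1b-Tg versus 0.566 in WT AMs, and Tenm2, a teneurin, 0.599 in Scnn1b-Tg versus 0.322 in WT AMs. Gains over many CpGs were found in Maml3, a Notch coactivator (20 CpGs, 0.598 in Scnn1b-Tg versus 0.383 in WT AMs), in the bHLH transcription factor gene Sim2 (13 CpGs, 0.642 in Scnn1b-Tg versus 0.430 in WT AMs) and in the F-BAR protein gene Fnbp1 (12 CpGs, 0.595 in Scnn1b-Tg versus 0.377 in WT AMs). Repeat-masked bases made up 3.52%, 33.2% and 25.7% of these regions.

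Repeats made up a large share of the intronic sequence. A DMR had a median of 24.7% repeat-masked bases in introns, 8.43% at promoters and 78.1% in distal intergenic DMRs. In introns 123 DMRs (24%) were repeat-masked over their whole length, against 31.9% of the other DMRs. Of those 123, 103 (83.7%) were hypomethylated in Scnn1b-Tg AMs, with median levels of 0.626 in Scnn1b-Tg versus 0.854 in WT AMs. Of the 121 intronic DMRs with no repeat-masked base, 86 (71.1%) were hypomethylated, with median levels of 0.516 in Scnn1b-Tg versus 0.662 in WT AMs. Repeat-masked DMRs outside introns had much the same share of hypomethylation, 83.8%. These shares were compared after the sequences had been seen and were not tested.

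Because sequences of different hosts resembled each other, DMRs that shared an exact stretch of 24 bases on either strand were joined into families, leaving out stretches of simple sequence. In all, 127 intronic DMRs (24.8%) fell into 8 families, and 110 of them were hypomethylated in Scnn1b-Tg AMs, a direction of 72.9% of all DMRs and 75.8% of intronic ones. The largest family held 64 DMRs in 61 hosts, 58 of them hypomethylated, with median levels of 0.582 in Scnn1b-Tg versus 0.842 in WT AMs. It included the DMRs of Mrc1, Sntg2 and Scml2. The next family held 26 DMRs, 23 of them hypomethylated, and included Slc7a2, Pdzrn4, Hivep3 and the hypermethylated region of Trak1. Another family of 26 DMRs, among them those of Pls3 and Sim2, had 19 hypomethylated members, a share like that of all DMRs. Reads from near-identical copies can be placed at the wrong copy, and the part of this in the levels was not tested.

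**Figure D3:**
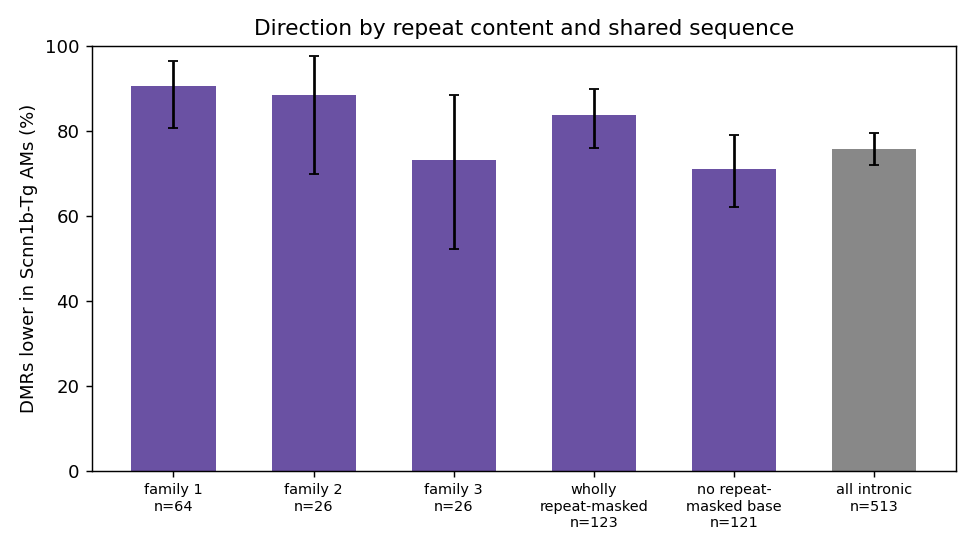
Share of intronic DMRs lower in Scnn1b-Tg AMs (vertical axis, %) for the 3 largest families of shared sequence, for DMRs wholly in repeats, for those without repeat-masked bases and for all 513, with exact 95% intervals as error bars. The largest family stands at 90.6%, and DMRs with no repeat-masked base stand at 71.1%.

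Short motifs of macrophage transcription factors were counted on both strands in windows of 200 bp around the DMR centres, as a description. The AP-1 motif TGANTCA was found in 6.94% of hypomethylated and 6.45% of hypermethylated intronic DMRs, and in 5.45% of all DMRs. The C/EBP motif TTGCNNAA was found in 10.8% of hypomethylated and 7.26% of hypermethylated intronic DMRs, and in 9.71% of all DMRs. PU.1 (GAGGAAGT) matched in 1.75% and IRF (AANNGAAA) in 26.3% of intronic DMRs, against 1.45% and 25.8% of all DMRs. The E-box CACGTG matched in 4.09% of intronic and 4.36% of all DMRs and the CRE motif TGACGTCA in 1 intronic window and 5 of all. Over intronic DMRs of both directions, each share lay within 2 percentage points of that in all DMRs.

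Hosts were next grouped by function, with lists chosen when earlier results of these data were known. The number of genes of a list that carried a DMR therefore says nothing about enrichment. The list of neural adhesion and synaptic genes held 47 intronic DMRs in 35 of 66 genes. Of these DMRs, 43 (91.5%) were hypomethylated in Scnn1b-Tg AMs, while 72.9% of all DMRs had that direction. Median levels of the 47 were 0.599 in Scnn1b-Tg versus 0.831 in WT AMs. Cntnap5c, a contactin-associated protein, had 0.398 in Scnn1b-Tg versus 0.753 in WT AMs. Dcc, the netrin receptor, had 0.538 in Scnn1b-Tg versus 0.888 in WT AMs in intron 21 of 28, and Rims2, a presynaptic scaffold, had 0.529 in Scnn1b-Tg versus 0.851 in WT AMs. The exceptions were Tenm2, Ptprd, Syt7 and Nxph1, the last 2 named after their values were seen. Such genes are among the longest in the genome, and no test against genes of equal length was made.

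In the list of solute carriers, ATPases and ABC transporters, all 20 intronic DMRs, in 19 of 473 genes, were hypomethylated in Scnn1b-Tg AMs, while 72.9% of all DMRs were, and the median difference was -0.22. Slc1a2, a glutamate transporter, had 0.417 in Scnn1b-Tg versus 0.705 in WT AMs. Slc16a7, a monocarboxylate transporter, had 0.661 in Scnn1b-Tg versus 0.941 in WT AMs. Slc25a21, a mitochondrial carrier, had 0.581 in Scnn1b-Tg versus 0.901 in WT AMs. Ion channel families held 16 DMRs in 12 of 220 genes, 15 of them hypomethylated, such as that of the potassium channel gene Kcnma1 (0.706 in Scnn1b-Tg versus 0.953 in WT AMs).

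In the list of phagocytosis, Fc receptors and Src-family signalling, which also holds lysosomal genes, 9 of 36 genes carried an intronic DMR. All 9 DMRs were hypomethylated in Scnn1b-Tg AMs, a direction of 72.9% of all DMRs, with median levels of 0.531 in Scnn1b-Tg versus 0.753 in WT AMs. Fcgr2b, the inhibitory Fc receptor, had 0.472 in Scnn1b-Tg versus 0.760 in WT AMs over 8 CpGs in intron 6 of 7 (chr1:170962947-170963289). Cbl, a ubiquitin ligase that acts downstream of receptor kinases, had 0.357 in Scnn1b-Tg versus 0.619 in WT AMs in its first intron. Lipa, the lysosomal acid lipase, had 0.461 in Scnn1b-Tg versus 0.697 in WT AMs. Atp6v1a encodes a subunit of the vacuolar proton pump, and its level was 0.538 in Scnn1b-Tg versus 0.788 in WT AMs. The macrophage mannose receptor gene Mrc1 had 0.631 in Scnn1b-Tg versus 0.859 in WT AMs in intron 15 of 29, in a region that lay entirely in a repeat of the largest family. The others were Cd53, given above, and Fyn, Sirpa and Atp6v0a2, named after their values were seen.

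Receptors and innate immune signalling genes held few DMRs, in both directions, while 72.9% of all DMRs were hypomethylated. Of 8 DMRs in 6 of 49 receptor genes, 5 were hypomethylated in Scnn1b-Tg AMs, 2 in each of Il1r1 and Ifngr2 and 1 in the receptor kinase gene Alk (0.618 in Scnn1b-Tg versus 0.829 in WT AMs). The Il1r1 DMR in intron 8 was 87.1% repeat-masked. The hypermethylated ones were Met, the chemokine receptor gene Ccr9 (0.622 in Scnn1b-Tg versus 0.402 in WT AMs) and Ror1 (0.665 in Scnn1b-Tg versus 0.471 in WT AMs). Of 5 DMRs in 5 of 59 innate immune genes, 2 were hypomethylated, in Nr3c1 and Pias1. Il18, the MHC class II transactivator gene Ciita (0.889 in Scnn1b-Tg versus 0.712 in WT AMs) and Cradd, which encodes a death domain adaptor, were hypermethylated. Cradd had 0.220 in Scnn1b-Tg versus 0.0473 in WT AMs, the lowest WT level of any intronic DMR.

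Among 39 transcription factor genes of macrophages, 3 carried an intronic DMR. Mitf, a regulator of lysosomal genes, had 0.529 in Scnn1b-Tg versus 0.743 in WT AMs over 12 CpGs, and Nr3c1 was also lower. Etv6, an ETS-family repressor, was higher, with 0.745 in Scnn1b-Tg versus 0.486 in WT AMs. The airway macrophage identity list had 2 hosts among 34 genes, Mrc1 and Il18, in opposite directions. Among marker genes of other cells, the monocyte and interstitial macrophage list had 1 of 24 (Ms4a4c, 0.807 in Scnn1b-Tg versus 0.527 in WT AMs), the list of other leukocytes 1 of 37 (Bank1) and the list of lung epithelium, endothelium and stroma 3 of 32, with 2 DMRs in each direction. Whether a small share of other cells contributed to these levels was not tested.

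The remaining lists lay near the background or held few DMRs. Collagens, ADAM proteases and proteoglycan enzymes had 12 of 17 hypomethylated. Small GTPase regulators had 8 of 11 and kinases, phosphatases and phosphodiesterases 11 of 16. Zinc finger genes had 9 of 12. Developmental transcription factors of the SOX, POU, PAX, forkhead, grainyhead and homeobox families had 7 of 12, with Sox6 (0.457 in Scnn1b-Tg versus 0.783 in WT AMs) and Tcf7l2 (0.627 in Scnn1b-Tg versus 0.325 in WT AMs) at either end. Chromatin and DNA methylation genes had 6 of 9, among them Scml2, a Polycomb protein, with 0.449 in Scnn1b-Tg versus 0.786 in WT AMs. Of the imprinted genes, Zdbf2 was lower, with 0.281 in Scnn1b-Tg versus 0.564 in WT AMs, and Trappc9 higher, with 0.586 in Scnn1b-Tg versus 0.345 in WT AMs.

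**Figure D4:**
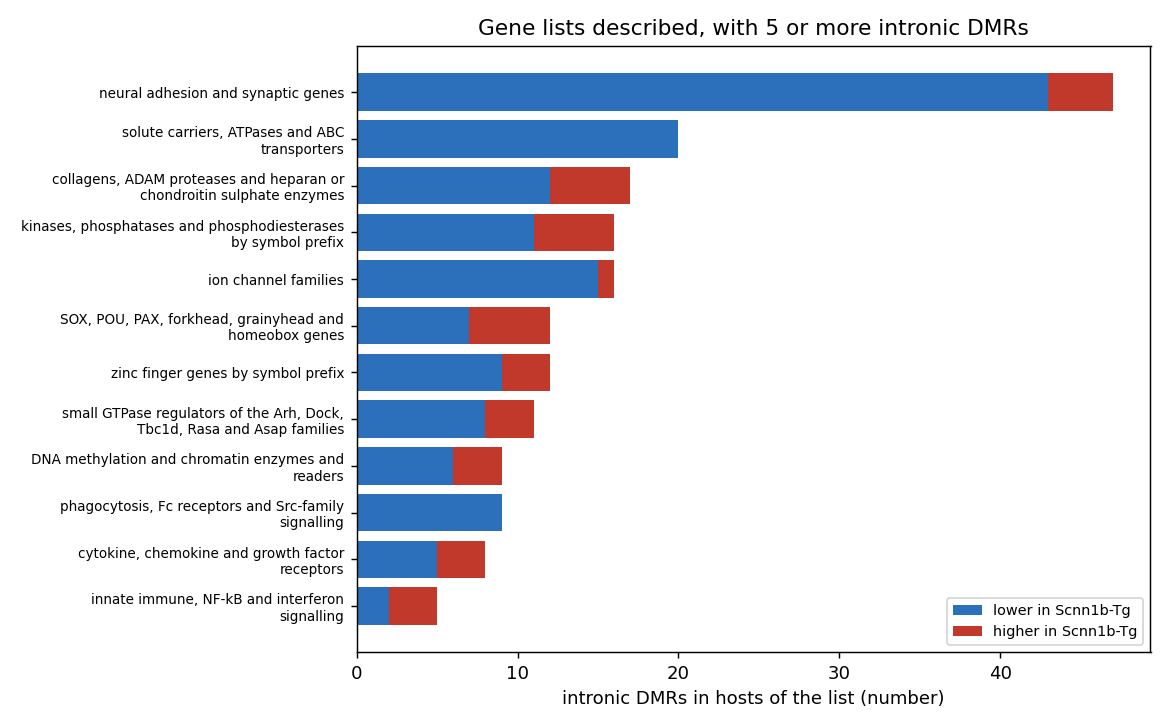
Number of intronic DMRs (horizontal axis) in hosts of each gene list described here with 5 or more, split into those lower and those higher in Scnn1b-Tg AMs. Transporters (20 of 20) and phagocytosis genes (9 of 9) held lower DMRs only, and innate immune genes held 2 lower and 3 higher.

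Several hosts carried more than 1 intronic DMR. There were 49 such hosts with 107 DMRs, of which 93 (86.9%) were hypomethylated in Scnn1b-Tg AMs, against 72.9% in hosts with a single DMR. All DMRs were hypomethylated in 37 hosts, all hypermethylated in 2 and mixed in 10. Kcnn2 carried 3 hypomethylated DMRs, at 0.595, 0.392 and 0.590 in Scnn1b-Tg versus 0.927, 0.637 and 0.853 in WT AMs, spread over introns 1, 2 and 9. Nrxn3, a presynaptic adhesion gene, Nbea, a vesicle trafficking gene, and the transcription factor gene Sox6 also carried 3 DMRs each, all hypomethylated. In Ifngr2, a subunit of the interferon gamma receptor, DMRs 3.98 kb apart in introns 2 and 5 had 0.478 and 0.488 in Scnn1b-Tg versus 0.734 and 0.690 in WT AMs. Coro2b, a coronin that binds actin, had 2 hypomethylated DMRs 8.18 kb apart in its first intron, at 0.394 and 0.278 in Scnn1b-Tg versus 0.595 and 0.487 in WT AMs. Pkig, an inhibitor of protein kinase A, and Xylt1, which starts glycosaminoglycan chains, carried 2 hypermethylated DMRs each. In Xylt1 these stood at 0.363 and 0.738 in Scnn1b-Tg versus 0.159 and 0.522 in WT AMs.

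Neighbouring DMRs in 1 host could move in opposite directions over short distances. In intron 3 of Trak1, an adaptor for mitochondrial transport, the hypermethylated repeat shown above was followed 0.954 kb away by a hypomethylated DMR with no repeat-masked base, with 0.443 in Scnn1b-Tg versus 0.652 in WT AMs (chr9:121414335-121414500). In intron 4 of Rnls, which encodes a flavoprotein oxidase, DMRs 1.18 kb apart had 0.975 and 0.804 in Scnn1b-Tg versus 0.732 and 0.965 in WT AMs. Both Rnls DMRs lay entirely in repeats, with 4 CpGs in the gain and 12 in the loss. In the first intron of Maml3 the gain over 20 CpGs lay 6.05 kb from a loss (0.628 in Scnn1b-Tg versus 0.840 in WT AMs), and 2 further losses lay farther away. Erp44, an endoplasmic reticulum chaperone gene, had a loss and a gain 6.63 kb apart, with 0.551 and 0.755 in Scnn1b-Tg versus 0.823 and 0.509 in WT AMs. The Erp44 loss lay entirely in repeat-masked sequence, and 16.5% of the gain did. Over all hosts, 4 of 8 neighbouring pairs under 10 kb apart had the same direction, and 43 of 50 pairs farther apart did (86.0%). With 8 close pairs this is a description only.

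**Figure D5:**
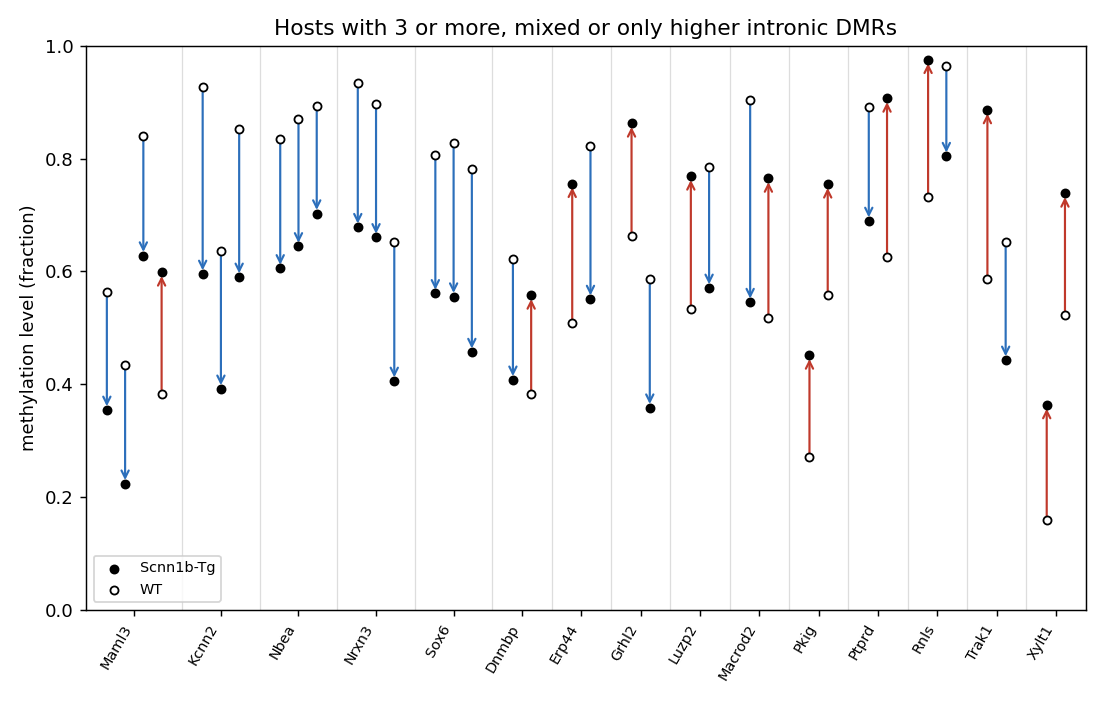
Methylation level (vertical axis, fraction) in Scnn1b-Tg AMs (filled circles) and WT AMs (open circles) for each intronic DMR of the named hosts with 3 or more DMRs, with both directions or with gains only. Arrows run from the WT to the Scnn1b-Tg level, DMRs of a host are in genomic order, and Trak1 and Rnls show a gain beside a loss.

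The gene nearest to an intronic DMR was not always the gene that contained it. Host and nearest gene were the same for 375 DMRs. The other 138 include 38 whose host had no gene identifier, which were counted as different without a comparison of genes. Direction did not separate the 375 from the 138, with 282 (75.2%, interval 70.5 to 79.5) and 107 (77.5%, interval 69.7 to 84.2) lower in Scnn1b-Tg AMs (Fisher's exact test, adjusted p = 0.780). Absolute difference, WT level, CpG density and length did not separate them either (exact median tests, adjusted p of 0.631, 0.634, 0.631 and 0.631). Of the 138, 100 had a host with a gene identifier. For the 83 of these whose host could be placed in GENCODE, the median distance was 162.8 kb to the TSS of the longest host transcript. It was 44.6 kb to the TSS of the nearest gene, an order that the choice of these DMRs fixes.

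A microRNA gene was the nearest gene in 21 of the 138 cases, and 16 of these had a host with a gene identifier. The Mrc1 DMR was assigned to Mir511, 34.8 kb away, that of Lncpint to Mir29b-1, and that of Abcc4, an efflux transporter named after its values were seen, to Mir6391 (0.259 in Scnn1b-Tg versus 0.472 in WT AMs). The Ano4 DMR was assigned to Slc5a8, the Dcc DMR in intron 21 to Mbd2, 780.7 kb away, and 2 DMRs of Epha6, an ephrin receptor gene, to Arl6. Both Epha6 DMRs lay in intron 14 of 17, with 0.401 and 0.653 in Scnn1b-Tg versus 0.611 and 0.927 in WT AMs. Both DMRs of Ppfia2, a liprin gene, and 2 of the 3 of Nbea likewise carried the name of another gene.

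Intronic DMRs were found on chromosomes 1 to 19 and X. Hypomethylated DMRs were the majority on all of them but chromosome 19, where 9 of 19 were hypomethylated in Scnn1b-Tg AMs. The highest share was on chromosome 12, 24 of 26 (92.3%). On the X chromosome, 20 of 25 intronic DMRs were hypomethylated.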

How the data were processed

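AMs of 3 Scnn1b-Tg and 4 WT samples were profiled by tWGBS. Per the submitters' processing notes, Trimmomatic 0.36, BWA 0.7.8, Picard and MethylDackel were run, with mm10 as the genome build. According to the study's methods, profiles were smoothed with bsseq and DMRs were called with DSS. Smoothing shares information between neighbouring CpGs, and amplified copies of little input DNA can widen differences. The sources used here give neither the treatment of reads that match several copies of a repeat nor the tool that annotated the DMRs. The deposited levels are fractions that the authors averaged over CpGs and samples of each genotype. They are the authors' means and carry no SD or n. The authors' difference and area statistic were not used. They hold the difference of both levels and the sum of the test statistics over a region. There were 0 columns of other samples left out.

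Differences were computed as the Scnn1b-Tg minus the WT level. Classes were compared with Fisher's exact tests and exact median tests (17 tests, scipy 1.17.1, Benjamini-Hochberg, threshold 0.05), which were tested on simulated data. Intervals are exact (Clopper-Pearson, 95%) and cover counts of regions only. Sequences and repeat masking came from the RefSeq copy of GRCm38, the assembly behind mm10, and gene symbols from RefSeq. Gene lists were counted by host, and 1 list, 1 sequence and some single results are not reported here. Members, lists and rules were chosen with earlier results of these data known, so list counts are descriptions. DMRs were named by a rule: in each direction the 8 with the largest difference among those with 6 or more CpGs and the 8 with the most CpGs, hosts with several DMRs, and up to 6 hosts per list. Sequences were printed for 4 DMRs per direction with the most CpGs and for 3 immune hosts, at most 300 bp long. Alternatives were a minimum of 10 CpGs, a minimum difference of 0.2, 1 DMR per gene, chromosomes 1 to 19 and introns from GENCODE. A further alternative kept regions 3 kb or farther from a TSS, with intronic ones only from genes with several introns. Depth per sample or region is unknown.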

Additional observations from a re-analysis of the deposited data

How the results depend on the processing

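No paired analysis was possible because the table holds 1 mean level per genotype and no value per sample, although replicate numbers 1, 3 and 5 occur in both genotypes. For the same reason no sample could be left out, and a minimum coverage could not be set because no coverage is given. Over 6 alternatives, 85 of 101 recomputed values kept their direction and their side of the threshold. The values below are differences in percentage points, and the cause of each change was not tested. Every alternative but that with introns from GENCODE also compared fewer regions. The GENCODE set compared 520 intronic with 1406 other DMRs. With 10 or more CpGs, the excess of hypomethylated DMRs in introns over promoters was 25.5 points with the adjusted p past the threshold no longer, and the deficit of high WT levels in first against later introns was -17.2. In that set, results that had not passed turned round: direction by host (14.0), WT level in intronic against other DMRs (1.27), and WT level (11.5) and CpG density (-10.3) by host. With a difference of 0.2 or more, the WT level of intronic against other DMRs passed at -9.64, the absolute difference turned to -4.45 and CpG density of first against later introns to 0.0833. With 1 DMR per gene, the WT level of first against later introns no longer passed (-7.60). The set at 3 kb or farther from a TSS held no promoter DMRs, and its intronic DMRs came from genes with several introns. There the WT level of intronic against other DMRs passed at -9.17 and the absolute difference turned to -3.54. With introns from GENCODE, the WT level of first against later introns no longer passed (-8.46), and the absolute difference of intronic against other DMRs (-1.32), CpG density of first against later introns (3.39) and length by host (1.75) turned round. Leaving out the X chromosome changed no call and no direction. The unknown spread between samples and the unknown depth of each sample and region limit every level.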

Other observations

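A set of intronic DMRs lay in antigen receptor loci, which rearrange in lymphocytes and are not expressed as receptors by macrophages. Their hosts are transcripts without a gene identifier that span many variable gene segments, 1 of them with 1148 introns, so their intron numbers say little. Within 100 kb of an immunoglobulin or T cell receptor gene segment in GENCODE there were 11 intronic DMRs, 9 hypomethylated and 2 hypermethylated in Scnn1b-Tg AMs. Hypomethylation was the direction of 72.9% of all and 75.8% of intronic DMRs, so these 11 lay near the background. In the immunoglobulin heavy chain locus, 1.45 kb from Ighv1-58 on chromosome 12, the level was 0.674 in Scnn1b-Tg versus 0.918 in WT AMs, and the nearest gene assigned was Mir6388. A second DMR 0.482 kb from Ighv1-63 had 0.588 in Scnn1b-Tg versus 0.850 in WT AMs. The third, 0.426 kb from Ighv1-70, had 4 CpGs in 2312 bp and differed little, with 0.489 in Scnn1b-Tg versus 0.532 in WT AMs. In the kappa light chain locus on chromosome 6, a DMR of 17 CpGs 9.94 kb from Igkv2-109 was higher, with 0.636 in Scnn1b-Tg versus 0.439 in WT AMs, and the 3 others there were lower. In the T cell receptor alpha locus on chromosome 14, 3 DMRs were lower and 1, 6.44 kb from Trav13d-4, was higher, with 0.917 in Scnn1b-Tg versus 0.602 in WT AMs. These regions were chosen after their values were seen. Of 37 marker genes of lymphocytes, granulocytes and other leukocytes, 1 (Bank1) hosted an intronic DMR, and whether lymphocyte DNA contributed was not tested.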
